A study of Homo sapiens with 6 samples.

Results

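The 36 genes described here encode the actins, the tropomyosins, the chains of non-muscle myosin and the proteins that bundle, anchor or remodel actin filaments, together with the transcription factor SRF. They were taken by symbol from the 61552 genes of the deposited table, where each was found once. Poly(A) RNA was sequenced from SKOV3 cells, an ovarian carcinoma line in long-standing laboratory use. Cells received fenbendazole at 1 µM for 48 h (libraries fenbendazole 7, 8 and 9) or the vehicle DMSO (libraries DMSO 10, 11 and 12). Fenbendazole is a veterinary worm drug of the benzimidazole class whose known target is tubulin. Both groups are the same line, with no modification named in the labels and 3 libraries each. The labels do not say whether the libraries came from separate cultures, and the p-values below reflect no more than the spread among these 6 libraries, which may be technical.

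Actin filaments grow from monomers, are stabilised by tropomyosins, cross-linked by alpha-actinins and filamin, pulled on by non-muscle myosin and tied to the cell surface at focal adhesions by talin, vinculin and zyxin. SRF binds a short element, the CArG box, in the promoters of many of these genes. Its cofactors of the MRTF family are held back by free actin monomers and enter the nucleus when monomers are used up, so that the pathway reads the state of the filaments. These genes are strongly expressed in spreading and contractile cells, carcinoma cells in culture included.

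Promoter sequences were searched for the CArG box, here CC, then 6 bases that are each A or T, then GG, a pattern that reads the same on both strands. The window ran from 250 bases before to 50 bases after each RefSeq start (GRCh38.p14), and 33 members had an entry, all but ACTB, TAGLN and MYL9. A box was found for 9 of these 33 genes (27.3%), against 438 of the 27305 genes in the promoter table (1.60%). The set was drawn up as actin cytoskeleton and SRF target genes, so a higher share than over all genes may be built in. By promoter it was 11 of 70 (15.7%) against 454 of 35116 (1.29%). No other motif was searched, and a match describes letters, not bound protein. The stretches below are shown because they carry the box in the genes on which the SRF part of the results turns. Capitals mark the box. The stretches of ACTG1, FLNA and MYLK are shorter because they lie on an annotated exon of GENCODE release 29, and the other stretches touch no annotated exon.
ACTG1: ggaaagatcgCCATATATGGacatgttctg
ACTN1: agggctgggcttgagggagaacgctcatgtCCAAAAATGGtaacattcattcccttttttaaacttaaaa
CNN2: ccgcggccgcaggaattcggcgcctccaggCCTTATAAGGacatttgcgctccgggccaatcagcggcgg
FLNA: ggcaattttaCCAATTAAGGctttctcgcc
TPM4: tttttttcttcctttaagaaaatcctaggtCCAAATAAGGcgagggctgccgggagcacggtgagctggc
MYLK: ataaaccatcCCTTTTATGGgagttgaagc
SRF: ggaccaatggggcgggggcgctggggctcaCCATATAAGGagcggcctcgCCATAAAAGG
In the order printed, 5′ to 3′, they lie at chr17:81512874-81512903 (minus strand), chr14:68977698-68977767 (minus strand), chr19:1026489-1026558 (plus strand), chrX:154374709-154374738 (minus strand), chr19:16067335-16067404 (plus strand), chr3:123620623-123620652 (minus strand) and chr6:43171209-43171268 (plus strand). The box began 94 bases before the start in ACTG1, FLNA and MYLK, 89 in CNN2, 171 in ACTN1 and 173 in TPM4. The promoter of SRF itself held 2 boxes, which began 30 and 10 bases before its start. FHL1 and FHL2 were the other 2 members with a box. Starts inside a gene were included. The MYLK box lies far inside the span of that gene (chr3:123610049-123884332, minus strand), near its 3′ end. The FHL1 box (chrX:136196911-136196940) also lies inside its span (chrX:136146702-136211359, plus strand). So do the boxes of ACTG1, ACTN1 and TPM4 and a box of FHL2. Whether transcripts from these inner starts make up the counts of these genes was not tested.

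Libraries held 13170775 to 22128930 counts, so that 3 counts equal 0.136 to 0.228 CPM (counts relative to the scaled size of a library). The control library DMSO 11 stood apart: a chi-square of counts per degree of freedom was 79.2 against DMSO 10 and 87.2 against DMSO 12, but 8.47 between DMSO 10 and 12 and 4.86 to 6.94 among the fenbendazole libraries. No 2 libraries of a group were repeats of each other. Results that rest on DMSO 11 are therefore given with and without it. A fit on all 6 libraries with offsets for GC content and transcript length stands beside them. Keratins of epithelial cells were present, with KRT8 at 453 CPM and KRT18 at 185 CPM in DMSO, and ERBB2, known to be amplified in this line, at 10757 CPM in controls and 4394 CPM in treated cells. The 5 smooth muscle markers summed to 72.6 to 80.2 CPM in DMSO and 69.8 to 74.3 CPM with fenbendazole, nearly all of it SYNM, while DES and ACTG2 averaged under 0.1 CPM in both groups. The 6 fibroblast markers summed to 53.1 to 99.9 and 49.5 to 54.1 CPM, the 4 leukocyte markers to 11.7 to 18.3 and 14.8 to 17.0 CPM, with CD3E at 0, and the 3 endothelial markers to 9.70 to 11.6 and 12.05 to 12.98 CPM. Nearly all of the leukocyte sum was CD68, at a mean of 15.1 CPM in both groups. Nearly all of the endothelial sum was PECAM1, at means of 10.3 and 12.2 CPM. Of the 16 of these 24 markers that could be tested, ERBB2 alone passed.

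In this set 6 genes were higher with fenbendazole when all libraries were used: the cytokinesis scaffold gene ANLN (5.32-fold), TAGLN, which encodes the actin-binding protein transgelin (2.81-fold), the tropomyosin genes TPM3, TPM4 and TPM1 (1.79-, 1.75- and 1.63-fold) and the myosin regulatory light chain gene MYL12A (1.66-fold). None was lower. Both cytoplasmic actins, the 3 cross-linkers, the 9 focal adhesion and stress fibre genes and SRF did not pass with all libraries. Of 36 members 34 passed the filter on low counts. By the quasi-likelihood test of edgeR over 17363 genes, at a Benjamini-Hochberg adjusted p of 0.05, 4.03% of genes passed in either direction, 3.11% higher (540 genes) and 0.921% lower (160 genes), while of the members 6 were higher, 0 lower and 28 did not pass. Upper-quartile scaling split the genes into 455 higher and 231 lower, and all 6 members kept their call under it. The median log2 fold change was 0.22 over the 34 members and -0.06 over all genes tested, with 24 members above and 10 below 0. At an unadjusted p of 0.05, 11 members were higher and 0 lower, beside 10.8% and 10.5% of all genes. DESeq2 called the same 6 and CALD1, with 0 lower, beside 6.11% of its 16338 genes higher and 4.28% lower. In 14 members every fenbendazole library lay above every control (17.0% of all genes did) and in 1, MYLK, every one lay below (15.5% of all genes did). In RNA from bulk cultures, a change in how many cells express a gene and a change in RNA per cell cannot be told apart.

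**Figure D1:**
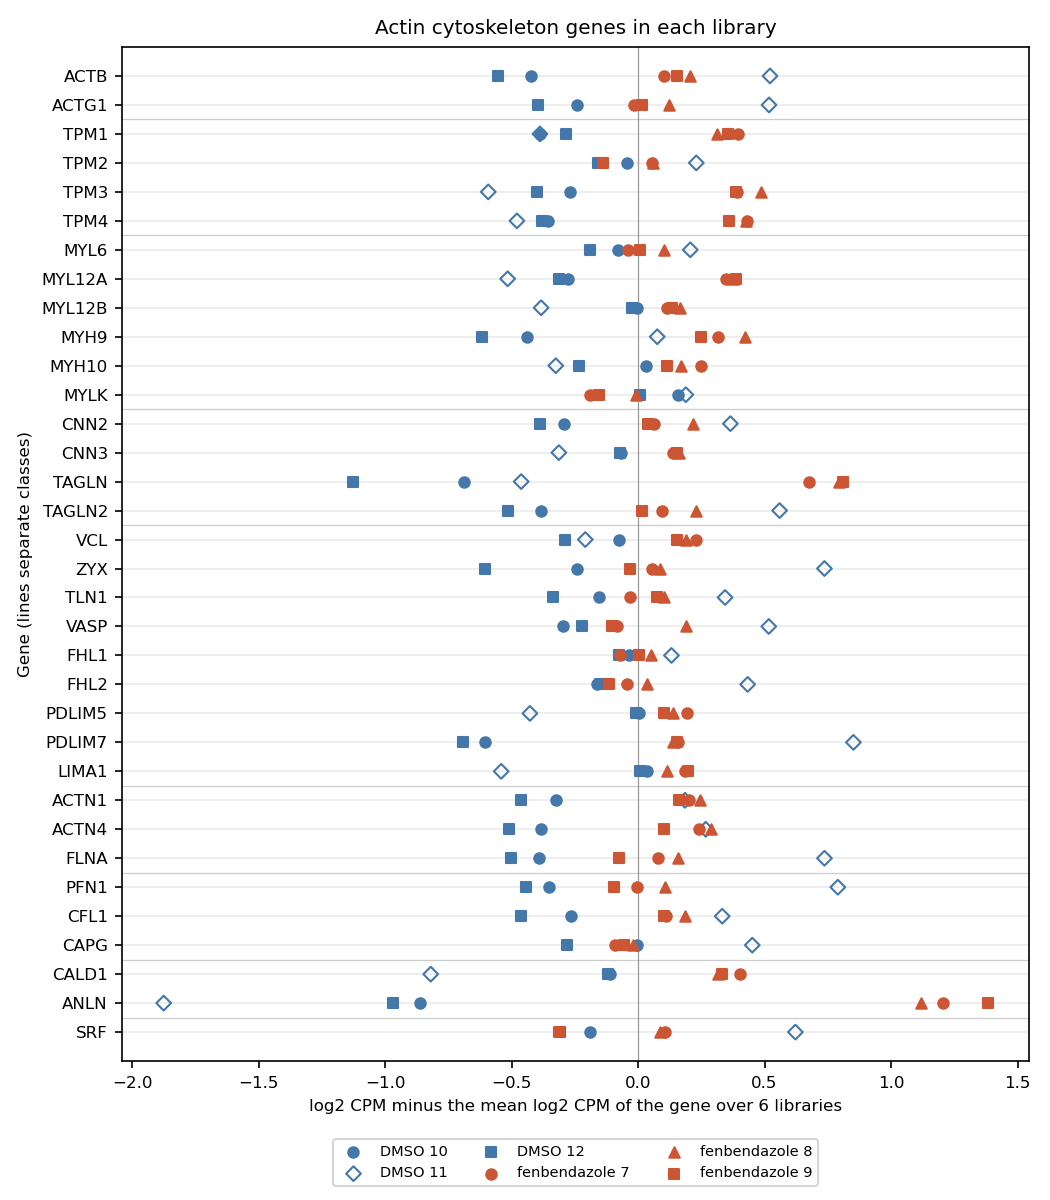
Level of the 34 tested genes in each library, as log2 CPM minus the mean log2 CPM of the gene over 6 libraries, with blue symbols for DMSO, red for fenbendazole and the open diamond for DMSO 11. Red and blue are apart for ANLN, TAGLN, TPM1, TPM3, TPM4 and MYL12A, and the open diamond is the rightmost point for 18 genes and the leftmost for 11.

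DMSO 11 held the highest level of all 6 libraries for 18 of the 34 genes (52.9%, against 33.8% of all genes tested) and the lowest for 11 (32.4%, against 33.3%). For ACTN1, ACTN4, MYH9, TAGLN and VCL it was neither. Transcripts of the 18 had a median GC content of 57.7% and those of the 11 a median of 44.9%. Across the 34 genes, GC content and the log2 ratio of DMSO 11 to the mean of the other controls had a Pearson r of 0.903 and a Spearman rank correlation of 0.872, and r was 0.761 across 16975 tested genes. These are descriptions over genes that share the same 3 libraries.

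**Figure D2:**
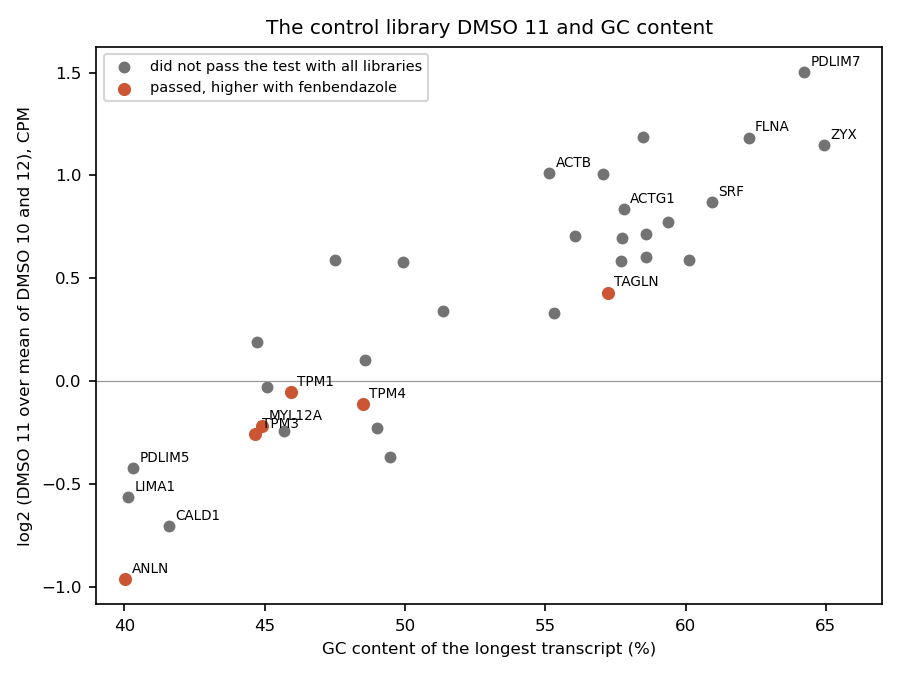
GC content of the longest transcript (%) on the horizontal axis and the log2 ratio of DMSO 11 to the mean of DMSO 10 and 12 on the vertical axis, 1 point per tested gene, red for the 6 genes that passed the test with all libraries. ANLN, at 40.0% GC, is lowest, and genes above 60% GC such as FLNA, PDLIM7 and ZYX lie above 0.

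Without DMSO 11, 23 of the 34 genes were higher and 0 lower, beside 13.1% of 17689 tested genes higher and 9.23% lower. With GC and length offsets on all 6 libraries, 22 were higher and 0 lower, beside 12.3% and 8.75% of all genes. All 22 are among the 23, PFN1 being the one called without DMSO 11 alone, and all 6 genes called with every library are among the 22. The members' median was 0.43 without DMSO 11 and 0.39 with offsets, against -0.01 and -0.03 over all genes (-0.025 before rounding). Dropping the most deviant control may understate the spread between controls, and the offsets also take out any GC trend between the groups. Which of the fits is closer to the cells was not tested. CAPG, FHL1, FHL2, LIMA1, MYL6, MYL12B, MYLK, PDLIM5, SRF, TPM2 and VASP were called in neither.

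**Figure D3:**
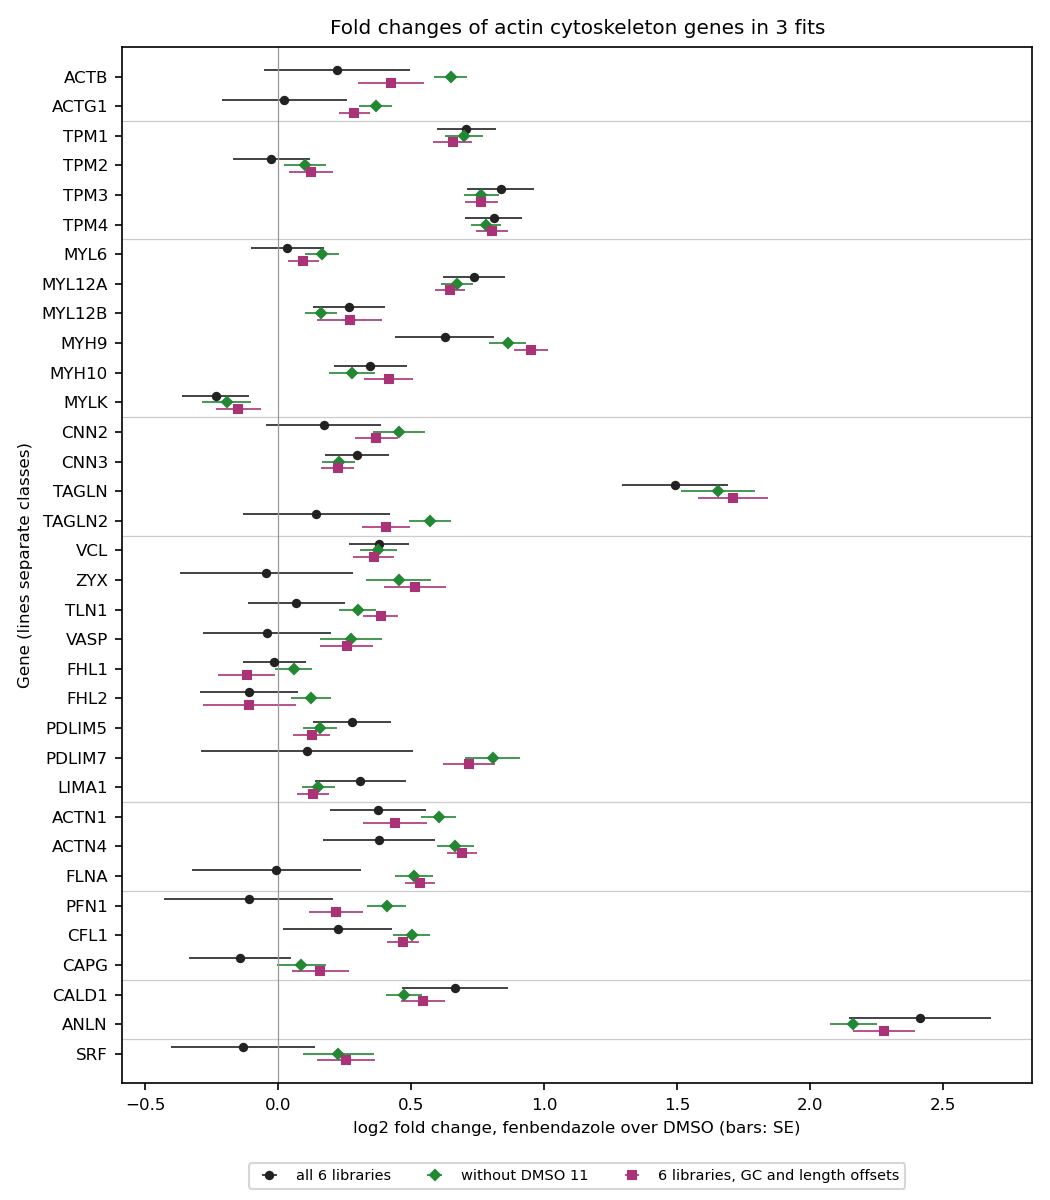
Log2 fold change of fenbendazole over DMSO for the 34 tested genes, with SE bars, from all 6 libraries (black), without DMSO 11 (green) and with GC and length offsets (purple). ACTB, TAGLN2, PDLIM7, FLNA and PFN1 move right when DMSO 11 is left out, while the 6 genes called with all libraries keep similar values in the 3 fits.

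The actins form the filament itself. ACTG1, which encodes gamma-actin, had the highest level per transcript length of the 36 genes, with a mean FPKM (fragments scaled by transcript length and library size) of 1347 over 6 libraries. ACTB, which encodes beta-actin, followed MYL6 in the third place at 364. ACTG1 (chr17:81509413-81523847) stood at 2343, 3967 and 2106 CPM in DMSO 10, 11 and 12 and at 2737, 3015 and 2804 CPM in fenbendazole 7, 8 and 9. ACTB (chr7:5526409-5563902) stood at 599, 1153 and 547 CPM in the controls and 862, 926 and 893 CPM with the drug, in the same order. In both cases the groups overlapped only through DMSO 11, the highest of the 6 libraries. With all libraries the log2 fold changes were 0.02 ± 0.234 (SE, adjusted p = 0.962) for ACTG1 and 0.22 ± 0.274 (adjusted p = 0.670) for ACTB. Without DMSO 11 ACTG1 was 1.29-fold and ACTB 1.57-fold higher (adjusted p = 0.000908 and 4.95e-06), and with offsets 1.22-fold and 1.34-fold (adjusted p = 0.00502 and 0.0464). These genes encode nearly identical proteins, and how reads that fit both genes were treated is not known from the labels. The share of ACTB in the summed FPKM of both actins was 20.6% ± 1.19 in DMSO and 21.6% ± 1.01 with fenbendazole (SD, n = 3 each), and the groups overlapped (two-sided exact permutation test, p = 0.4, adjusted p = 0.68 over 17 shares).

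Tropomyosins are rod-shaped dimers that lie along the filament and set which myosins and severing proteins reach it. Of the 4 genes, 3 were higher in each of the 3 fits, where 3.11%, 13.1% and 12.3% of all genes were higher. TPM4 (chr19:16067021-16103002), the most abundant of them per length, stood at 589, 541 and 579 CPM in DMSO and 1016, 1013 and 968 CPM after the drug. TPM3 (chr1:154155304-154194648) was measured at 353, 283 and 323 CPM and at 559, 597 and 557 CPM. TPM1 (chr15:63042632-63071915) had 89.5, 89.4 and 95.9 CPM in the controls and 154, 145 and 149.6 CPM with the drug. In all 3 genes each treated library lay above each control, DMSO 11 included. The log2 fold changes were 0.81 ± 0.107 for TPM4, 0.84 ± 0.126 for TPM3 and 0.71 ± 0.112 for TPM1 (adjusted p = 0.00814, 0.0126 and 0.0154). They were 0.78, 0.76 and 0.70 without DMSO 11. The calls of TPM3 and TPM4 were lost when any one fenbendazole library was left out (adjusted p from 0.0836 to 0.0915 and from 0.0700 to 0.0748). Over all 6 omissions of a library the log2 fold change was 0.76 to 0.92 for TPM3 and 0.78 to 0.84 for TPM4. The call of TPM1 was lost then too (0.102 to 0.122) and without DMSO 10 (0.0808). Reads of processed pseudogenes amounted to 2.64% of those of TPM3.

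TPM2, which encodes beta-tropomyosin, was not called in any of the 3 fits: as mean ± SD over 3 libraries, here and below, it stood at 123 ± 17.3 CPM in control cells and 121 ± 9.11 CPM in fenbendazole libraries, a log2 fold change of -0.03 ± 0.144 (adjusted p = 0.934). Within the family, the share of TPM2 in the summed FPKM of the 4 tropomyosins was 19.8, 25.3 and 19.3% in DMSO 10, 11 and 12 and 14.0, 13.9 and 13.6% in fenbendazole 7, 8 and 9. That of TPM4 was 44.7, 41.5 and 45.4% against 48.2, 49.0 and 46.6%, and that of TPM3 24.1, 20.3 and 22.4% against 24.4, 24.9 and 26.5%. The groups did not overlap for these 3 genes, and the share of TPM1 overlapped. With 3 libraries against 3 the exact permutation test cannot go below p = 0.1, which each of the 3 reached (adjusted p = 0.243). From counts in place of FPKM, the groups still did not overlap for TPM2 and TPM4 but did for TPM3.

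**Figure D4:**
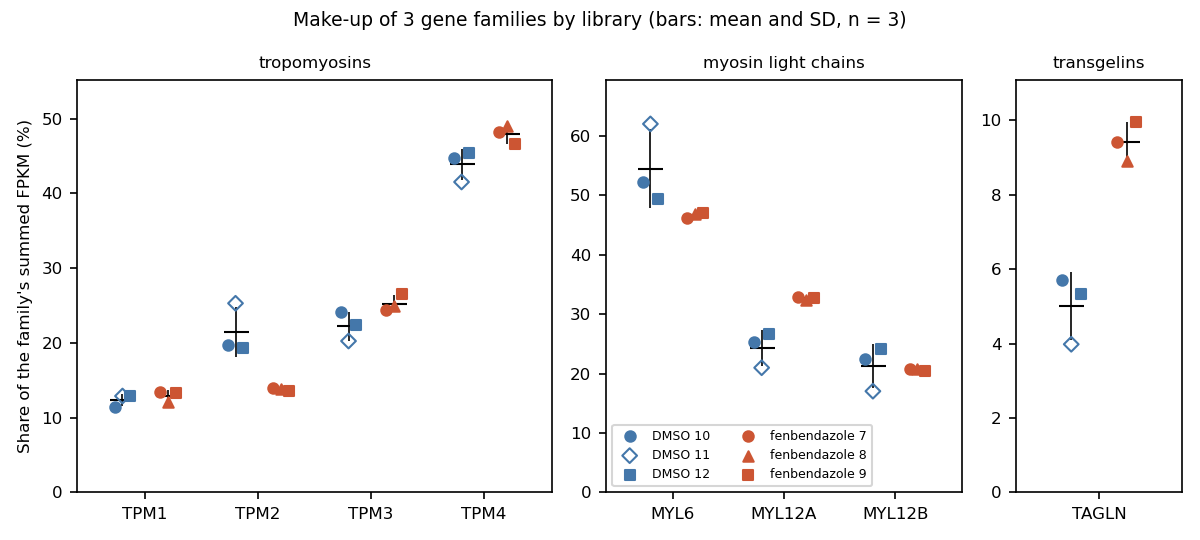
Share of each gene in the summed FPKM of its family (%), by library, for the tropomyosins, the myosin light chains other than MYL9, and TAGLN of the transgelins, with lines for mean and SD over 3 libraries. TPM2 is at 19.3 to 25.3% in DMSO and 13.6 to 14.0% with fenbendazole, and TAGLN at 3.98 to 5.71% and 8.89 to 9.96%.

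Non-muscle myosin II is built from heavy chains (MYH9, MYH10), an essential light chain (MYL6) and regulatory light chains (MYL9, MYL12A, MYL12B) whose phosphorylation, by MYLK among other kinases, switches on contraction. MYL12A (chr18:3247481-3256236) rose, from 243, 206 and 237 CPM in the controls to 374, 382 and 384 CPM with fenbendazole, so that the groups were well apart. Its log2 fold change was 0.74 ± 0.117 (adjusted p = 0.0156). Leaving out DMSO 10 ended the call (adjusted p = 0.0596), as did leaving out fenbendazole 7, 8 or 9 (0.105, 0.108 and 0.118). Its neighbour and near-identical copy MYL12B (chr18:3261479-3278461) averaged 243 ± 34.3 and 292 ± 5.21 CPM (adjusted p = 0.301). Reads may have been shared between these copies, so the division between them is uncertain. Within the 4 light chain genes, MYL12A made up 25.3, 21.0 and 26.6% of the summed FPKM in DMSO and 32.9, 32.4 and 32.7% with fenbendazole, with no overlap, while MYL12B overlapped. The share of MYL6 was 54.5% ± 6.65 and 46.7% ± 0.383 (SD, n = 3 each), again with no overlap (exact permutation p = 0.1, the smallest possible, adjusted p = 0.243).

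MYL6 itself, the second most abundant member per length at a mean FPKM of 487, stood at 406, 496 and 377 CPM and 418, 461 and 431 CPM, with overlapping groups and a log2 fold change of 0.03 ± 0.137 (0.035 before rounding, adjusted p = 0.903). Its span overlaps 3 genes, SMARCC2 having the most counts, and counts of the overlapping genes were 35.98% of its own. MYH9 averaged 894 ± 233 CPM in the controls and 1379.9 ± 84.5 CPM in treated cells, and each treated library lay above each control. It did not pass with all libraries (log2 fold change 0.63 ± 0.188, adjusted p = 0.119), and was 1.82-fold higher without DMSO 11 (adjusted p = 1.06e-06) and 1.93-fold with offsets (adjusted p = 2.95e-06). MYH10, the scarcer heavy chain gene at 89.2 ± 11.7 and 113 ± 5.28 CPM, gave adjusted p = 0.205, 0.0346 and 0.00927 in the same 3 fits. Counts of the 4 overlapping genes, NDEL1 having the most, were 38.3% of those of MYH10. The kinase gene MYLK was the one member with negative values in all 3 fits, at 71.9 ± 4.79 CPM in DMSO and 61.1 ± 4.18 CPM after the drug (log2 fold change -0.24 ± 0.128, adjusted p = 0.324). FHL1 and FHL2 were negative with all libraries and with offsets but not without DMSO 11. MYL9 was near the floor, with 4, 1 and 5 counts in the controls and 1, 0 and 0 in treated libraries, and was not tested.

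Calponins and transgelins bind the side of actin filaments, and TAGLN and CNN1 are known as markers of contractile smooth muscle and as targets of SRF. TAGLN (chr11:117199370-117207464) rose from 17.7, 20.8 and 13.1 CPM in control cells to 45.7, 49.6 and 50.1 CPM in fenbendazole libraries. All 3 treated libraries were more than 2-fold above the highest control. The log2 fold change was 1.49 ± 0.198 (adjusted p = 0.00865), 1.65 ± 0.138 without DMSO 11 and 1.71 with offsets. It lost its call when fenbendazole 7, 8 or 9 was left out (adjusted p = 0.0585, 0.0626 and 0.0700). Its span overlaps 2 genes, whose counts were 103% of its own. PCSK7, which had the most, stood at 31.1 CPM in controls and 29.5 CPM in treated cells (adjusted p = 0.814). Whether counting used strand is not given in the sources used here. TAGLN2, the abundant paralog, had 145, 279 and 133 CPM and 203, 222 and 191 CPM. With all libraries it did not pass (0.14 ± 0.278, adjusted p = 0.792), DMSO 11 being the highest of the 6, and without that library it was 1.48-fold higher (adjusted p = 0.000135). TAGLN made up 5.71, 3.98 and 5.34% of the summed FPKM of both transgelins in DMSO and 9.41, 8.89 and 9.96% with fenbendazole (exact permutation p = 0.1, the smallest possible, adjusted p = 0.243). CNN3 averaged 174 ± 16.5 and 213 ± 1.66 CPM and CNN2 56.6 ± 17.1 and 63.8 ± 4.39 CPM. Both passed without DMSO 11 (log2 fold change 0.23 and 0.45, adjusted p = 0.0174 and 0.00403) and with offsets (0.22 and 0.37), but not with all libraries (0.212 and 0.675). CNN1 had 0 counts in each control and 4, 2 and 0 with fenbendazole, too few to test.

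Focal adhesion and stress fibre proteins link filaments to integrins and to each other. None of the 9 genes passed with edgeR on all libraries or with DESeq2, and 1, VCL, had an unadjusted p under 0.05 (10.8% of all genes were higher at it). VCL, ZYX, TLN1 and PDLIM7 were higher both without DMSO 11 and with offsets, where 13.1% and 12.3% of all genes were higher. TLN1, which encodes talin, the link to integrins, is the most abundant of them per length and stood at 626, 883 and 551 CPM in the controls and 681, 748 and 732 CPM in treated cells. Its log2 fold change moved from 0.07 ± 0.183 (adjusted p = 0.853) to 0.30 ± 0.0681 without DMSO 11 (adjusted p = 0.00625). VCL, which encodes vinculin, averaged 385 ± 29.04 and 501 ± 12.6 CPM with no overlap between groups, a log2 fold change of 0.38 with all libraries (adjusted p = 0.116) and 0.38 without DMSO 11 (adjusted p = 0.00140). ZYX (zyxin) and PDLIM7 have the 2 most GC-rich transcripts of the set, at 64.9 and 64.2%. DMSO 11 was the highest library for both, at 68.1 CPM for ZYX against 34.6 and 26.9 in the other controls, and at 80.3 CPM for PDLIM7 against 29.3 and 27.5. Log2 fold changes of ZYX were -0.04, 0.45 and 0.51 in the 3 fits, and those of PDLIM7 0.11, 0.81 and 0.72. The LIM domain genes LIMA1 and PDLIM5 had treated libraries above all controls (180.5 ± 37.8 against 223 ± 7.16 CPM, and 171 ± 27.6 against 208 ± 6.47 CPM), with DMSO 11 the lowest. Neither passed in any of the 3 fits, and without that library their log2 fold changes were more than 1.5 times smaller, 0.15 in place of 0.31 and 0.16 in place of 0.28. VASP, which promotes filament elongation, averaged 46.0 ± 15.3 and 44.8 ± 5.18 CPM, FHL1 131 ± 10.2 and 129 ± 5.42 CPM and FHL2 122 ± 30.4 and 113 ± 5.98 CPM, and these 3 passed in none of the fits.

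The cross-linkers ACTN1 and ACTN4 (alpha-actinins) and FLNA (filamin A) join filaments into bundles and networks. FLNA (chrX:154348524-154374634) had 1452, 3172 and 1342 CPM in DMSO and 2010.1, 2121 and 1805 CPM after the drug. Its DMSO 11 value was more than 2-fold above the other controls, and the 3 treated libraries lay between. The log2 fold change was -0.01 ± 0.318 with all libraries (adjusted p = 0.991), 0.51 ± 0.0706 without DMSO 11 (adjusted p = 0.000192) and 0.53 with offsets (adjusted p = 8.66e-05). ACTN4 averaged 586 ± 179.9 and 763 ± 50.5 CPM, and ACTN1 266 ± 66.1 and 346 ± 9.65 CPM. Neither passed with all libraries (adjusted p = 0.335 and 0.274), and without DMSO 11 ACTN4 was 1.59-fold and ACTN1 1.52-fold higher (adjusted p = 1.1e-05 and 1.67e-05). The share of ACTN1 in their summed FPKM was 31.5% ± 4.79 and 29.9% ± 5.61 (SD, n = 3 each), with overlap.

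The set holds 3 genes of filament turnover: PFN1 (profilin) feeds monomers to growing ends, CFL1 (cofilin) severs filaments and CAPG caps them. PFN1 stood at 192, 424 and 181 CPM in control cells and 245, 264 and 229.6 CPM in fenbendazole libraries, the treated libraries again lying between DMSO 11 and the other controls. Its log2 fold change was -0.11 ± 0.319 with all libraries (adjusted p = 0.864), 0.41 without DMSO 11 (adjusted p = 0.00118) and 0.22 with offsets (adjusted p = 0.162). CFL1 averaged 327 ± 98.4 and 382 ± 12.2 CPM and passed in the latter 2 fits at 0.50 and 0.47, but not with all libraries (adjusted p = 0.558). CAPG, at 91.6 ± 24.0 and 83.0 ± 2.02 CPM, passed in none.

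ANLN encodes anillin, which binds actin and myosin at the cleavage furrow of dividing cells. Its increase was the largest of the 34 genes in each of the 3 fits. ANLN (chr7:36389821-36453791) stood at 61.0, 30.2 and 56.5 CPM in the controls and 256, 241 and 289 CPM in treated cells, more than 3-fold above the highest control. The log2 fold change was 2.41 ± 0.267 (adjusted p = 0.00407), 2.16 ± 0.0881 without DMSO 11 and 2.28 with offsets. It was the one member whose call was kept whichever library was left out (2.16 to 2.60, adjusted p at most 0.0353). Its span overlaps KIAA0895, whose counts were 24.6% of its own and which averaged 39.5 CPM in controls and 32.7 CPM in treated cells (adjusted p = 0.503). The proliferation marker gene MKI67 moved with it, from 137 ± 36.005 to 764 ± 14.4 CPM (log2 fold change 2.48 ± 0.200, adjusted p = 0.00120), and its part in the result was not tested. CALD1, which encodes caldesmon, an inhibitor of myosin on actin, averaged 102 ± 26.0 and 161 ± 5.20 CPM with no overlap. It missed the threshold with edgeR on all libraries (log2 fold change 0.67 ± 0.199, adjusted p = 0.117), passed with DESeq2 (adjusted p = 0.0343) and was higher without DMSO 11 (0.47, adjusted p = 0.000195) and with offsets (0.55, adjusted p = 0.000891).

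The transcript of SRF itself (chr6:43171269-43181506) was scarce, with a mean FPKM of 8.84, and stood at 36.2, 63.5 and 33.3 CPM in DMSO and 44.4, 43.8 and 33.3 CPM after the drug. The groups overlapped, DMSO 11 was highest, and DMSO 12 and fenbendazole 9 were equal to 3 digits. The log2 fold change was -0.13 ± 0.271 with all libraries (adjusted p = 0.803), 0.23 ± 0.133 without DMSO 11 (adjusted p = 0.260) and 0.26 with offsets (adjusted p = 0.122). Of the 9 genes with a box of the kind printed above near a RefSeq start, 1 (TPM4) was called with all libraries. Both without DMSO 11 and with offsets, 5 were called (ACTG1, ACTN1, CNN2, FLNA and TPM4). Of the 23 tested genes with a promoter entry and no box, 4, 16 and 15 were called in these 3 fits. Genes with a box were called no more often than genes without. Both groups are small and come from a set drawn up as actin cytoskeleton and SRF target genes, and a part of SRF was not tested. Of all genes 3.11%, 13.1% and 12.3% were higher in these fits. ACTB and TAGLN, without a promoter entry, are in neither group.

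Genes of the same pathway outside the set were described from 6 lists with 105 genes in the table, of which 100 were tested: 14 were higher and 0 lower with all libraries, with a median log2 fold change of 0.10, where 3.11% of all genes were higher and 0.921% lower. DESeq2 gave 15 higher and 3 lower (6.11% and 4.28% of all genes), and an unadjusted p of 0.05 gave 24 and 5 (10.8% and 10.5%). All 14 were also called without DMSO 11 and with offsets, where the totals were 40 higher and 9 lower (13.1% and 9.23% of all genes), and 35 higher and 8 lower (12.3% and 8.75%). The lower counts are close to the share of all genes. Of the 5 tested SRF cofactors none passed with edgeR on all libraries or with DESeq2. ELK3 was higher without DMSO 11 (log2 fold change 0.34, adjusted p = 0.00464) and with offsets (0.30, adjusted p = 0.0117). At an unadjusted p of 0.05, 1 cofactor was higher and 0 lower, a threshold that 10.8% of all genes passed higher. MRTFA was at 32.2 ± 9.46 CPM in control cells and 21.8 ± 4.14 CPM in fenbendazole libraries (log2 fold change -0.57 ± 0.251, adjusted p = 0.246), and MRTFB at 90.3 ± 12.9 and 90.3 ± 2.19 CPM (adjusted p = 0.998). Among 18 other targets of SRF, 7 rose and 0 fell with all libraries. The log2 fold change was above 0 in 8 of them and below 0 in 10, with a median of -0.04. Without DMSO 11, 9 were higher and 1 lower, and with offsets 8 and 1. SMTN, which encodes the contractile-cell protein smoothelin, rose from 2.70 ± 0.295 to 7.77 ± 0.302 CPM (2.86-fold, adjusted p = 0.0115). The matricellular protein genes CCN1 and CCN2 rose 2.47- and 3.76-fold (adjusted p = 0.00261 and 0.00720), CCN2 from 7.80, 11.1 and 6.25 CPM to 33.4, 32.3 and 29.6 CPM. CCN1 stood at 32.5 ± 2.63 and 80.2 ± 1.86 CPM. The immediate early genes EGR1, FOS and FOSB and the gene TUFT1, named after their values were seen, rose 2.14-, 2.31-, 6.36- and 1.68-fold. FOSB had 7, 10 and 3 counts in DMSO 10, 11 and 12 and 38, 47 and 19 with fenbendazole. JUNB, IER2 and EGR3 of the same list did not pass with all libraries (log2 fold change -1.08, -0.22 and -0.06). All treated libraries lay below all controls for JUNB. Without DMSO 11 the 3 values were -0.15, 0.56 and 0.05, and IER2 alone passed (adjusted p = 0.0276). Of the 7 targets that rose, CCN1 alone kept its call whichever library was left out. CCN2 lost its call without fenbendazole 7 or 8, and SMTN, EGR1, FOS and TUFT1 without DMSO 10 or any one fenbendazole library, EGR1 and TUFT1 also without DMSO 12. FOSB lost its call without DMSO 10, DMSO 12, fenbendazole 7 or fenbendazole 8. SMTN and EGR1 were not called on the deposited FPKM, FOSB not with limma-voom and TUFT1 not without a filter on low counts, and FOSB was too low to test on FPKM.

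Of 17 genes of the Arp2/3 complex and its activators none passed with edgeR on all libraries, and 1, ARPC5, was higher with DESeq2. Without DMSO 11, 4 were higher and 0 lower, where 13.1% and 9.23% of all genes were. With offsets 1 was higher, ARPC5 (adjusted p = 0.0227), and 0 lower, where 12.3% and 8.75% of all genes were. At an unadjusted p of 0.05, 2 were higher and 0 lower, a share near the 10.8% of all genes that were higher at it. With edgeR on all libraries 1 of 15 other genes of filament turnover rose, CORO1C (coronin, 1.49-fold, adjusted p = 0.0362). So did 1 of 21 other cross-linker and adhesion genes, EZR (ezrin, 1.60-fold, adjusted p = 0.0146). Of all genes 3.11% were higher in that fit, and 1 call in a list of such size is close to that share. Without DMSO 11, 6 of the 15 were higher and 2 lower, and 10 of the 21 higher and 2 lower, EVL among the latter. With offsets the counts were 6 and 1 of the 15 and 10 and 2 of the 21. CORO1C and EZR lost their calls without DMSO 10 or any one fenbendazole library, and CORO1C also without DMSO 12, under upper-quartile scaling, with no filter on low counts and on the deposited FPKM. GSN, which encodes the severing protein gelsolin, averaged 69.4 ± 30.2 and 36.8 ± 6.34 CPM (log2 fold change -0.92 ± 0.302, adjusted p = 0.144). It passed without DMSO 11 at -0.49 (adjusted p = 0.0187) and with DESeq2 at -0.93 (adjusted p = 0.0382), and did not pass with offsets at -0.84 (adjusted p = 0.0986).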

How the data were processed

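Raw read counts per gene, deposited by the authors as whole numbers, were the unit tested, and the FPKM values in the same table, named so per the file headers, served for levels per length and family shares. The build was GRCh38 and the tools listed were HISAT2 2.1.0, StringTie 1.3.4b, CASAVA 1.8 and edgeR, per the submitters' processing notes. How reads were counted, with what strand setting and which annotation, is not given in the sources used here. Per the labels' protocols, RNA was isolated with TRIzol and an NEB Ultra kit served for the libraries.

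The test was edgeR 4.0.16 (R 4.3.3), fitting quasi-likelihood models (robust option, TMM factors, filterByExpr) over 17363 genes at a Benjamini-Hochberg adjusted p of 0.05, checked on simulated data. CPM of tested genes are on the TMM scale and those of untested genes on unscaled totals, given as mean ± SD over 3 libraries. SE came from the F statistic. Overlap of groups was judged on CPM. Family shares were compared with two-sided exact permutation tests. Length and GC content are those of the longest GENCODE release 29 transcript (97.8% of tested genes). Alternatives included DESeq2 1.42.0 and limma 3.58.1. The rule for named genes took all 36 members, up to 3 tested genes with the smallest p in each other list, and MRTFA, MRTFB, MKI67 and 2 further genes. One of the other lists, with those 2 genes, counts in the totals over all lists and is not reported here. The members, the lists and the settings were chosen with earlier results of these data known. Plots were made in Python 3.11.15 using matplotlib 3.10.9.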

Additional observations from a re-analysis of the deposited data

How the results depend on the processing

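No paired analysis was possible because no library number occurs in both groups. The count of all genes past the threshold was 700 (540 higher and 160 lower). It was 1697 (998 and 699) with DESeq2, 4587 (2434 and 2153) with quality weights, 3658 (2138 and 1520) with GC and length offsets, 214 (200 and 14) tested against 1.5-fold, and 210 (193 and 17) at an adjusted p of 0.01. Leaving out 1 library gave 147 to 3946 (139 to 2313 and 8 to 1633). Members higher were 6, then 21 with quality weights, 22 with offsets, 2 against 1.5-fold, 3 at 0.01 and 1 to 23 without 1 library (1 without fenbendazole 7, 8 or 9, 4 without DMSO 10, 23 without DMSO 11), and members lower were 0 throughout. In the other lists 14 were higher: 36, 35, 6 and 6 in the same 4 settings, and 5 to 40 without 1 library. Their 0 lower became 3 with DESeq2, 10 with quality weights, 8 with offsets and 0 to 9 without 1 library. Family shares with no overlap numbered 7 of 17, 1 of them MYL9 at under 6 counts a library, 6 from counts and 7 to 13 without 1 library. Not called with all libraries, but called with the opposite sign elsewhere, were PFN1 (0.36 with quality weights, -0.32 to 0.41 without 1 library, the 0.41 without DMSO 11), ZYX (0.51 with offsets, -0.29 to 0.45, the 0.45 without DMSO 11) and FLNA (0.47 with weights, 0.53 with offsets, -0.22 to 0.51, the 0.51 without DMSO 11). The cause was not tested. Of 896 values of named genes under alternatives, 722 kept side and direction, 65 gained and 38 lost the threshold, 64 changed sign while not called, and 7 are those above. Depth limits CNN1 and MYL9, at 5 counts or fewer per library.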
